A study of Homo sapiens with 6 samples.

Results

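Bone morphogenetic protein (BMP) signalling was described in 6 oligonucleotide arrays of cultured human glioma cells through 10 genes, named for their place in the pathway: the ligands BMP2 and BMP4, the secreted antagonist GREM1 (Gremlin 1), the receptors BMPR1A and BMPR2, the target genes ID1, ID2 and ID3, the pseudoreceptor BAMBI and the co-repressor TGIF1. Of the 10 genes, 9 were matched to 19 probe sets that carry a single gene symbol, among 19775 genes on the array. BMPR1A was not analysed here. All 9 passed the filter on low signal and were tested among 14513 genes.

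The groups were U87MG, the parental glioblastoma line, and its derivatives U87MGL, labelled non-invasive, and U87MGR, labelled highly invasive, with 2 arrays each. Both derivatives had gone through 4 rounds of injection into the left striatum of 6-week-old BALB/c nu/nu mice, recovery of the tumour cells from the brain and culture in medium with serum. The U87MGL arrays are labelled as the lines U87MGL2 (replicate 1) and U87MGL3 (replicate 2), and the U87MGR arrays as U87MGR2 and U87MGR3, so the spread within a derivative holds the difference between lines, while the U87MG arrays are replicates of the same line. The labels call the U87MG arrays biological replicates without saying what separates them, and p-values measure only the spread among these samples. The labels state that red blood cells were removed on recovery and say nothing of other mouse cells, whose part was not tested.

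Values are log2 signals, so a difference of 1 is a 2-fold difference, and errors are SDs of 2 arrays. A gene was called at a limma p-value adjusted by Benjamini-Hochberg over all 14513 genes under 0.05. Array medians lay between 5.29 and 5.35. Spiked-in control RNA, which carries no cellular RNA, parted the arrays across the groups: both U87MGL arrays lay with U87MGR replicate 1, U87MG replicate 1 lay with U87MGR replicate 2, and U87MG replicate 2 stood alone. Over 45 control probe sets, arrays of a batch were 0.9 to 1.44 log2 units apart and arrays of different batches 5.59 to 8.84. Differences within a batch are therefore given beside the pooled ones, each resting on 1 U87MGR array. No batch held both U87MGL and U87MG. In fits with 2 batches as a block U87MG replicate 2 joined U87MG replicate 1, and with 3 it was left out. U87MGR alone was then split between blocks, as the lines U87MGR2 and U87MGR3. Batch and line cannot be told apart in these fits, and they reach U87MGL against U87MG only through the 2 U87MGR arrays. The 3′ minus 5′ signal difference of the actin controls was -0.01 and 0.22 in U87MG and 0.25 to 0.39 in the derivatives, so it moved with the contrast of derivatives against U87MG, and its part in the results was not tested. The same difference of the GAPDH controls was 0.24 in U87MGR replicate 2 and 0.03 to 0.07 on the other 5 arrays. The glioma markers vimentin (VIM) and CD44 were at the 100th and 99.5th percentile of all probe sets, while the astrocyte markers S100B and AQP4 lay below the filter and GFAP was at the 49.5th percentile. Of the 8 glioma and astroglia markers tested, SOX9, a transcription factor of glial cells, was the 1 called: it was higher in U87MGL by 2.30 (adjusted p = 0.0165) and in U87MGR by 2.16 (adjusted p = 0.0239) than in U87MG, the contrasts in which GREM1 was called. The part of this in the results was not tested.

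BMP ligands are secreted dimers that bind type I receptors such as BMPR1A together with the type II receptor BMPR2. The activated receptors phosphorylate SMAD1, SMAD5 and SMAD9, which enter the nucleus with SMAD4 and switch on the ID genes, whose products are helix-loop-helix proteins without a DNA-binding region that hold E proteins away from DNA and oppose differentiation. Gremlin binds BMP2 and BMP4 outside the cell and keeps them from their receptors. In glioblastoma, BMPs are known to push stem-like cells toward astrocytic differentiation, and Gremlin 1 is known as an antagonist that such cells secrete.

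The promoters of GREM1, the member with the widest range of group means, and of the ID genes, the pathway's readout, are shown so that their SMAD-like motifs can be read beside the values. Each is the 250 bases before a transcription start in RefSeq, build GRCh38.p14, written 5′ to 3′ on the gene's own strand: GREM1 at chr15:32717754-32718003 (plus strand, the first of 2 starts), ID1 at chr20:31605039-31605288 (plus), ID2 at chr2:8681806-8682055 (plus) and ID3 at chr1:23559502-23559751 (minus). Capitals mark GGCGCC, a GC-rich SMAD motif that is its own reverse complement, and CAGAC, a core SMAD-binding sequence, or its reverse complement GTCTG.
GREM1: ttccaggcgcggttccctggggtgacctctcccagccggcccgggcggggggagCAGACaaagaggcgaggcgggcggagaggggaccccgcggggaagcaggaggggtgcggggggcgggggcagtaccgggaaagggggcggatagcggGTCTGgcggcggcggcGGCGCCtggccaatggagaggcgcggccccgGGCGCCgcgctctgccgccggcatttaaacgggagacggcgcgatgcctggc
ID1: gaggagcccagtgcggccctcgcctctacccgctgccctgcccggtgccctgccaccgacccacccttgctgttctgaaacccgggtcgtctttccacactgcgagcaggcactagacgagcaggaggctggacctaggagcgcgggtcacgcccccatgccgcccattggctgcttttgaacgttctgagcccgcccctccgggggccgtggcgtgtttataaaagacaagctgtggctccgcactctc
ID2: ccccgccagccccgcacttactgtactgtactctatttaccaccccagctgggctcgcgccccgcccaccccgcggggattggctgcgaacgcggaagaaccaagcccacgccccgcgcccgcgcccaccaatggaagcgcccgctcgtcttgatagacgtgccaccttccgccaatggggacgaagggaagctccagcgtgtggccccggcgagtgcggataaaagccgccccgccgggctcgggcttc
ID3: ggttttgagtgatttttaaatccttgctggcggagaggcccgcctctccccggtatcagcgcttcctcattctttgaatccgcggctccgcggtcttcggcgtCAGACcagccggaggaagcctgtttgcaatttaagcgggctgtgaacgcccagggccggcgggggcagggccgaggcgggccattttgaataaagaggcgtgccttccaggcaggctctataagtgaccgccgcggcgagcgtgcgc

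The GREM1 window held GGCGCC at 2 places and CAGAC at 2. The ID3 window held 1 CAGAC, and those of ID1 and ID2 held neither motif. Of 35116 windows of this length in the table, 16.4% held GGCGCC and 38.0% CAGAC on either strand. Promoter windows were found for 9 of the 10 genes (all but BMP2), and GGCGCC was present at the first listed start of 4 of them: GREM1, BMP4, BMPR2 and BAMBI. Counting every listed start, as for the motifs that follow, CAGAC was present for 6 of the 9. Genes had up to 7 starts (TGIF1), so these counts by gene are unlike the shares of single windows. The palindrome GTCTAGAC was in none of the 9 and in 0.182% of all windows, and the E-box CACGTG was in 1 of the 9 (BMP4, at the third of its 3 starts) and in 6.34% of all. These matches describe letters in a short window; the BMP response element known for ID1 lies farther upstream than the bases shown.

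Both derivatives had more GREM1 transcript than U87MG, and this was the largest difference among the 9 genes. GREM1 was 4.22-fold higher in U87MGL and 3.21-fold higher in U87MGR. U87MGL also had 1.87-fold more BMPR2 and 1.91-fold less TGIF1 than U87MG. None of these calls held with spike-in batches as a block, and that of TGIF1 was also lost over the mean of its probe sets. None of the 9 genes was called between U87MGR and U87MGL. In numbers, 3 of 9 were called in U87MGL against U87MG (2 higher, 1 lower), where 4.82% of all tested genes were called (3.02% higher, 1.8% lower); 1 of 9, higher, in U87MGR against U87MG, where 3.3% were called (1.86% higher, 1.44% lower); and 0 of 9 in U87MGR against U87MGL, where 0.158% were called (0.0413% higher, 0.117% lower). At an unadjusted limma p under 0.05 the last contrast had 0 members higher and 2 lower (ID2 and BAMBI), beside 3.91% and 4.94% of all genes; BAMBI passed the filter only through U87MGL, so its place in this count supports nothing. Contrasts with U87MG share its arrays, so their values for a gene are not independent. The members were chosen with earlier results of these data known, so their counts beside all genes are a description.

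**Figure D1:**
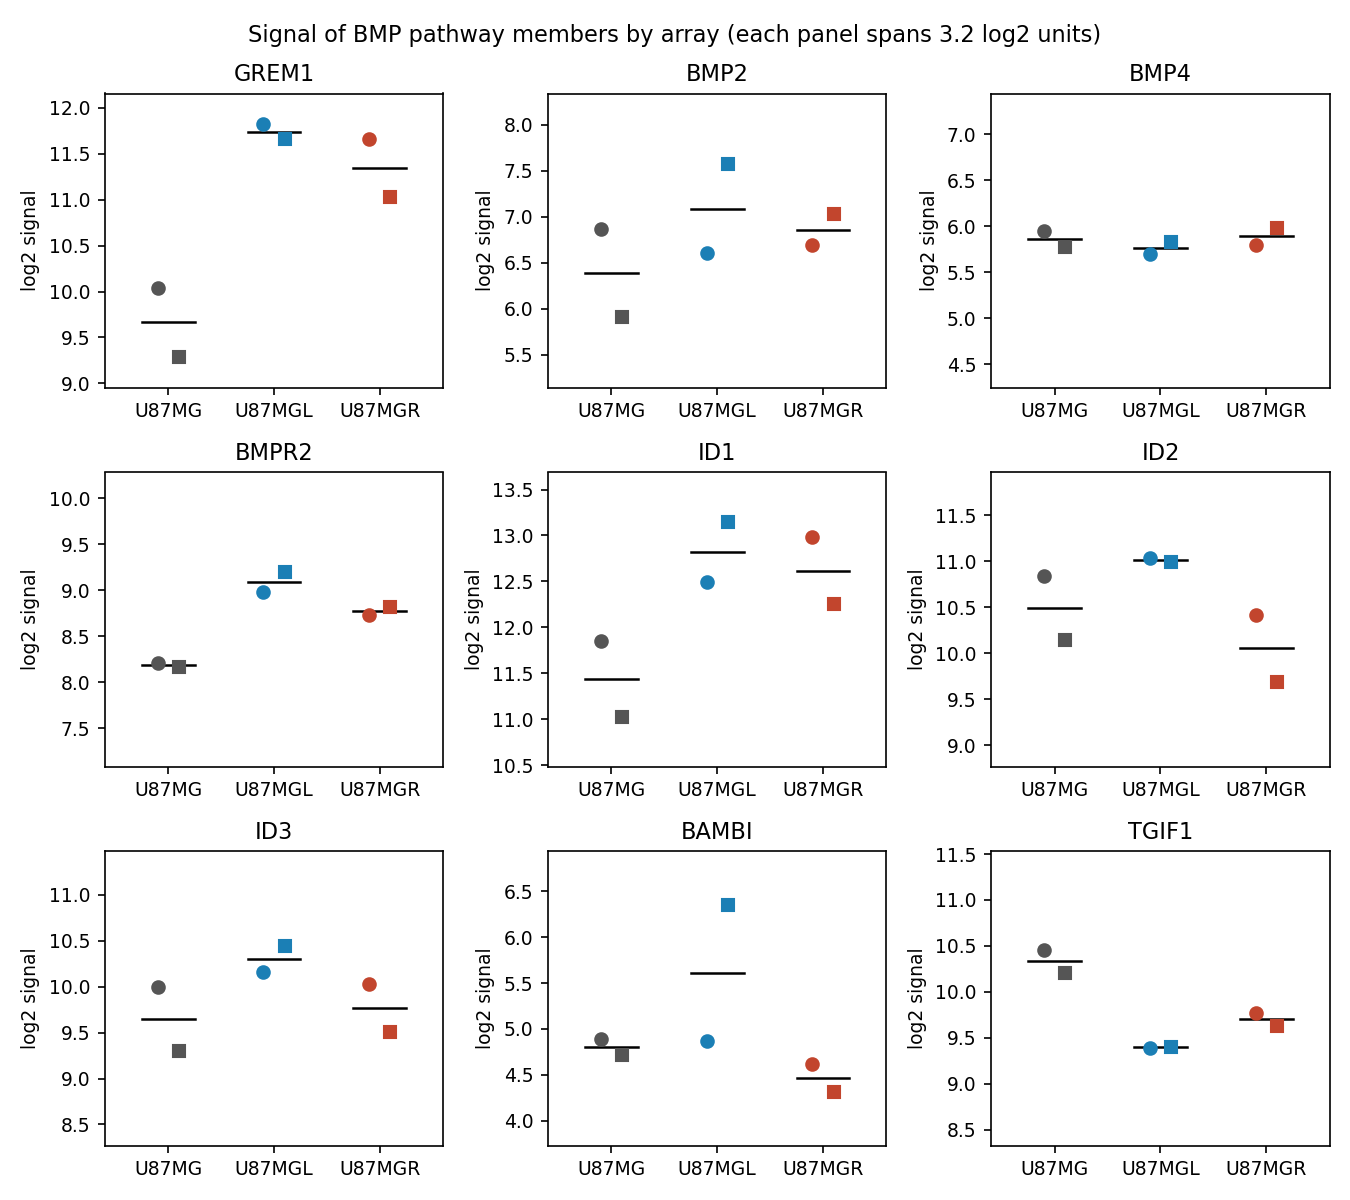
Log2 signal (vertical axis) of the 9 tested genes in U87MG, U87MGL and U87MGR; circles are replicate 1, squares replicate 2 and bars group means, and every panel spans the same number of log2 units. GREM1 and ID1 lie higher in all 4 derivative arrays than in both U87MG arrays, TGIF1 lies lower, and BAMBI is high in U87MGL replicate 2 alone.

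The antagonist GREM1 (probe set 218469_at) had signals of 10.04 and 9.29 in the U87MG arrays, 11.82 and 11.66 in U87MGL, and 11.66 and 11.03 in U87MGR. All 4 derivative arrays lay above both U87MG arrays, and the derivatives overlapped each other only in that U87MGR replicate 1 reached the level of U87MGL replicate 2. Group means were 9.66 ± 0.53, 11.74 ± 0.12 and 11.35 ± 0.45 (SD, n = 2). The log2 fold change was 2.08 for U87MGL against U87MG (SE 0.30, adjusted p = 0.0187) and 1.68 for U87MGR against U87MG (SE 0.30, adjusted p = 0.0371). Between U87MGR and U87MGL it was -0.39, with a 95% interval of -1.10 to 0.32 (adjusted p = 0.754).

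The second GREM1 probe set, 218468_s_at, gave the same order: 9.56 and 9.05 in U87MG, 11.35 and 11.17 in U87MGL, and 11.25 and 10.28 in U87MGR. Its differences were 1.96 (U87MGL against U87MG) and 1.46 (U87MGR against U87MG), with limma adjusted p of 0.0587 and 0.13 over all 54675 probe sets, where the main probe set had 0.0442 and 0.0867. Within the spike-in batch of U87MG replicate 1 and U87MGR replicate 2 the main probe set differed by 0.99, against 1.68 pooled, and within the batch of U87MGL and U87MGR replicate 1 by -0.08. With batches as a block in limma neither call held: U87MGR against U87MG was 1.37 (2 batches, adjusted p = 0.157) or 0.99 (3 batches, without U87MG replicate 2, adjusted p = 0.0726), and U87MGL against U87MG was 1.45 (adjusted p = 0.504) or 1.07 (adjusted p = 0.193). The call of U87MGR against U87MG was kept without U87MG replicate 1 (2.06, adjusted p = 0.0244) and lost without U87MG replicate 2 (1.31, 0.0778), either U87MGL array (1.68, 0.0646), U87MGR replicate 1 (1.37, 0.157) or U87MGR replicate 2 (2.00, 0.143). That of U87MGL against U87MG was lost without U87MGL replicate 1 (1.99, 0.0853) or replicate 2 (2.16, 0.105) and kept without any other array, at 1.70 to 2.45.

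The genes whose 6 values, each centred on the gene's own mean, lay nearest to those of GREM1 among all tested genes were KIF23, a kinesin of cytokinesis, SHCBP1 and NCEH1, with root mean square differences of 0.121, 0.174 and 0.185 log2 units over the 6 arrays. KIF23 was at 8.30 and 7.61 in U87MG, 9.77 and 9.78 in U87MGL, and 9.87 and 9.24 in U87MGR. Like GREM1, it was lower in replicate 2 than in replicate 1 of U87MG and of U87MGR.

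The ligands that Gremlin binds did not part the groups. BMP2 (205289_at) was at 6.87 and 5.91 in U87MG, 6.61 and 7.57 in U87MGL, and 6.69 and 7.03 in U87MGR. All 3 groups overlapped, and the gap between replicates was 0.96 in U87MG and 0.96 in U87MGL, more than any difference between groups. The differences were 0.70 (U87MGL against U87MG, 95% interval -0.24 to 1.64), 0.47 (U87MGR against U87MG, -0.47 to 1.41) and -0.23 (U87MGR against U87MGL, -1.17 to 0.71). The second BMP2 probe set gave 0.74, 0.66 and -0.08. Leaving out U87MG replicate 2 took the difference of U87MGR from U87MG to -0.01, and leaving out U87MGL replicate 2 took that of U87MGR from U87MGL to 0.25.

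BMP4 (211518_s_at) had the smallest differences between group means of the 9 members, at 5.95 and 5.77 in U87MG, 5.70 and 5.83 in U87MGL, and 5.79 and 5.99 in U87MGR. The groups overlapped, and its differences were -0.10 (U87MGL against U87MG, 95% interval -0.48 to 0.29), 0.03 (U87MGR against U87MG, -0.36 to 0.41) and 0.12 (U87MGR against U87MGL, -0.26 to 0.51). Its mean signal was at the 57.3rd percentile of all probe sets.

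The type II receptor BMPR2 (225144_at) was at 8.20 and 8.17 in U87MG, 8.98 and 9.20 in U87MGL, and 8.73 and 8.82 in U87MGR. The 3 groups did not overlap, with U87MGL highest and U87MGR between, as held for 2 of the 9 members (BMPR2 and TGIF1) and for 15.9% of all tested genes. The log2 fold change was 0.91 for U87MGL against U87MG (SE 0.16, adjusted p = 0.0283) and 0.59 for U87MGR against U87MG (SE 0.16, adjusted p = 0.0909), which did not pass. Between U87MGR and U87MGL it was -0.32 (95% interval -0.69 to 0.05, adjusted p = 0.626). Within spike-in batches the last pair of differences were 0.61 and -0.36, close to the pooled values.

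Of the other 5 BMPR2 probe sets, 4 were also higher in U87MGL than in U87MG, by 1.47, 0.72, 0.78 and 1.05, and higher in U87MGR than in U87MG, by 0.92, 0.25, 0.57 and 0.38. The last of these 4, 238516_at, had a mean signal of 4.65, below the filter of 4.73. The fifth, 1556075_at, differed by -0.14 and -0.20. The BMPR2 call in U87MGL against U87MG was lost with batches as a block (0.99, adjusted p = 0.449 with 2 batches, and 0.97, 0.225 with 3) and without U87MG replicate 2 (0.89, 0.0658), U87MGL replicate 1 (1.01, 0.108) or replicate 2 (0.80, 0.228), or either U87MGR array (0.91, 0.0621).

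Among the target genes, ID1 was higher in both derivatives than in U87MG without passing the test. The main probe sets of ID2 and ID3 did not follow it in U87MGR. ID1 (208937_s_at) was at 11.85 and 11.02 in U87MG, 12.49 and 13.15 in U87MGL, and 12.98 and 12.25 in U87MGR. All 4 derivative arrays lay above both U87MG arrays and the derivatives overlapped. The log2 fold change was 1.39 in U87MGL (SE 0.37, adjusted p = 0.0845) and 1.19 in U87MGR (SE 0.37, adjusted p = 0.133), and U87MGR and U87MGL differed by -0.20 (95% interval -1.08 to 0.67). Within spike-in batches U87MGR differed from U87MG by 0.41 and from U87MGL by 0.16, and with 2 or 3 batches as a block U87MGL differed from U87MG by 0.66 (adjusted p = 0.825) or 0.245 (adjusted p = 0.843). Without U87MG replicate 1 the difference of U87MGL from U87MG was 1.80 and passed (adjusted p = 0.0427); without U87MG replicate 2 it was 0.97.

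ID2 (201565_s_at) was at 10.84 and 10.14 in U87MG, 11.04 and 10.99 in U87MGL, and 10.42 and 9.69 in U87MGR. U87MGR lay below U87MGL in both arrays and overlapped U87MG. The difference of U87MGR from U87MGL was -0.96, a 1.95-fold difference with a 95% interval of -1.69 to -0.24 that leaves out 0, and an adjusted p of 0.411 over all genes. U87MGR replicate 2 carried more of it: with replicate 1 of U87MGR left out the difference grew to -1.33, and with replicate 2 left out it shrank to -0.60, which is also the value within the spike-in batch. U87MGR replicate 2 is the array with the higher GAPDH 3′ minus 5′ difference (0.24), whose part was not tested. The second ID2 probe set (201566_x_at) gave -0.88. U87MGL differed from U87MG by 0.53 (adjusted p = 0.339), or by -0.20 and -0.55 with 2 and 3 batches as a block, and U87MGR from U87MG by -0.44 (adjusted p = 0.465) or by -1.15 within the batch. A further ID2 probe set, 213931_at, carries 2 gene symbols and was not used. It gave -0.54 for U87MGR against U87MGL, but 1.19 for U87MGL and 0.65 for U87MGR against U87MG.

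ID3 (207826_s_at) was at 9.99 and 9.30 in U87MG, 10.16 and 10.44 in U87MGL, and 10.03 and 9.50 in U87MGR. U87MGL lay above both other groups, which overlapped each other. U87MGL differed from U87MG by 0.66 (95% interval -0.01 to 1.32, adjusted p = 0.22), U87MGR from U87MGL by -0.53 (-1.20 to 0.13, adjusted p = 0.645) and U87MGR from U87MG by 0.12 (-0.54 to 0.79). The last turned to -0.49 within the spike-in batch and to -0.22 without U87MG replicate 2.

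In U87MG and in U87MGR the main probe sets of the 3 ID genes differed between the arrays of the group by similar amounts. In U87MGL they did not. Replicate 2 was below replicate 1 in U87MG by 0.82 for ID1, 0.70 for ID2 and 0.69 for ID3, and in U87MGR by 0.73, 0.73 and 0.53. In U87MGL replicate 2 differed by 0.66, -0.05 and 0.28. These gaps are as large as most of the differences between groups, and all 9 members were lower in replicate 2 than in replicate 1 of U87MG, as were 53.2% of all tested genes. In both U87MG and U87MGR the replicates lie in different spike-in batches.

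A difference between ID genes within an array takes out a gap that they share; it has a meaning only between arrays, since probe sets differ in brightness for reasons other than transcript number. These differences were formed after the values had been seen and were not tested. They use 201565_s_at for ID2. They were not formed with 213931_at, on which U87MGR differed from U87MG by 0.65, where 201565_s_at gave -0.44. How far they depend on the probe set was not tested. ID1 minus ID2 was 1.01 and 0.88 in U87MG, 1.45 and 2.16 in U87MGL, and 2.57 and 2.57 in U87MGR. The 3 groups did not overlap on it, as held for 12.3% of the 14512 other tested genes when set against ID2. Within spike-in batches U87MGR exceeded U87MG by 1.56 and U87MGL by 0.76. ID1 minus ID3 was 1.86 and 1.72 in U87MG, 2.33 and 2.71 in U87MGL, and 2.95 and 2.75 in U87MGR, again without overlap, against 7.52% of other genes set against ID3. ID3 minus ID2 was -0.85 and -0.84 in U87MG, -0.88 and -0.55 in U87MGL, and -0.39 and -0.19 in U87MGR, where U87MG and U87MGL overlapped.

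**Figure D2:**
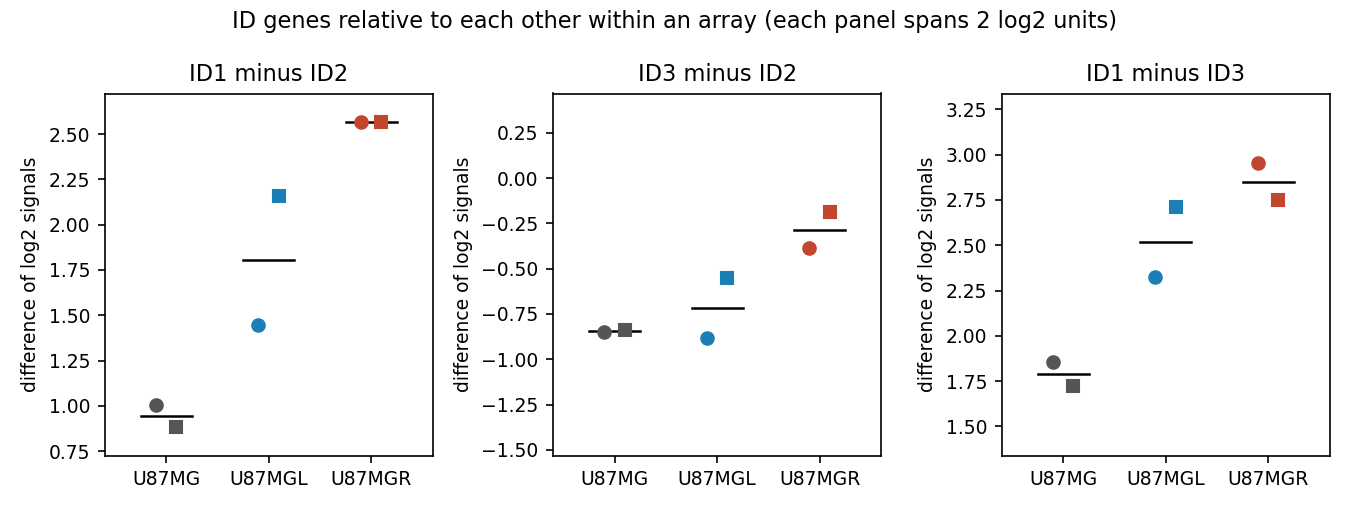
Difference of 2 log2 signals within an array (vertical axis) for ID1 minus ID2, ID3 minus ID2 and ID1 minus ID3 in the 3 groups; circles are replicate 1, squares replicate 2 and bars group means. ID1 relative to ID2 is lowest in U87MG (1.01 and 0.88) and highest in U87MGR (2.57 and 2.57), with U87MGL between.

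Of the inhibitors inside the cell, TGIF1, a homeodomain co-repressor that binds SMADs of the TGF-beta branch, was called lower in U87MGL than in U87MG. TGIF1 (203313_s_at) was at 10.46 and 10.21 in U87MG, 9.40 and 9.40 in U87MGL, and 9.77 and 9.63 in U87MGR. The groups did not overlap and their order was the reverse of that of BMPR2. The log2 fold change was -0.93 for U87MGL against U87MG (SE 0.16, adjusted p = 0.0285) and -0.63 for U87MGR against U87MG (SE 0.16, adjusted p = 0.0856), which did not pass. U87MGR differed from U87MGL by 0.30 (95% interval -0.09 to 0.69, adjusted p = 0.651). Within spike-in batches these last differences were -0.83 and 0.37.

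The dimmer TGIF1 probe sets gave -0.54 (244858_at) and -0.23 (1566901_at) for U87MGL against U87MG and -0.49 and 0.38 for U87MGR against U87MG, and over the mean of all 3 probe sets the first contrast was -0.57 and no longer called (adjusted p = 0.16). The TGIF1 call was also lost with batches as a block (-1.08, adjusted p = 0.423 with 2 batches, and -1.21, 0.156 with 3), without U87MGL replicate 1 (-0.93, 0.149) or replicate 2 (-0.94, 0.193) and without either U87MGR array (-0.93, 0.0621).

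BAMBI, a receptor look-alike without a kinase domain that blocks TGF-beta and BMP receptors, had low signals of 4.89 and 4.72 in U87MG, 4.87 and 6.34 in U87MGL, and 4.62 and 4.32 in U87MGR, where the filter lay at 4.73. The mean of the 4 U87MG and U87MGR arrays, 4.64, was below the filter, which BAMBI passed only through U87MGL. The U87MGR arrays were the lowest and U87MGL replicate 2 stood 1.47 above U87MGL replicate 1. U87MGR differed from U87MGL by -1.14 (95% interval -2.15 to -0.13, adjusted p = 0.505), from -1.88 without U87MGL replicate 1 to -0.40 without U87MGL replicate 2. It differed from U87MG by -0.34 (-1.35 to 0.67). U87MGL differed from U87MG by 0.80 (-0.21 to 1.81), or by 0.07 without U87MGL replicate 2.

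**Figure D3:**
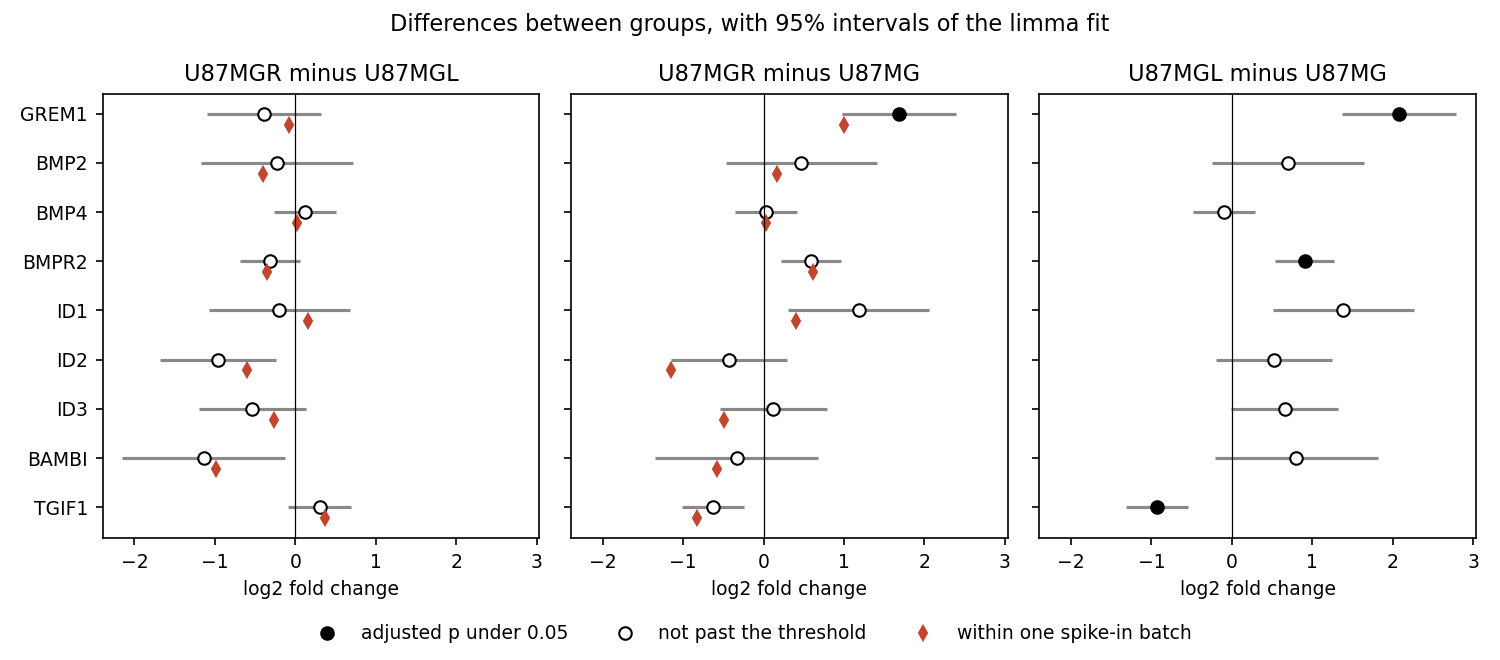
Log2 fold change (horizontal axis) of the 9 genes in the 3 contrasts; circles are limma estimates with 95% intervals, filled where the adjusted p was under 0.05, and diamonds are differences within a spike-in batch that holds both groups. GREM1 is called in both contrasts with U87MG and BMPR2 and TGIF1 in U87MGL minus U87MG alone, and the diamond of GREM1 in U87MGR minus U87MG lies at 0.99 against 1.68.

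The arrays of the groups lay apart for 6 of 9 members in U87MGL against U87MG (5 higher, 1 lower), against 56.4% of all tested genes (28.1% higher, 28.3% lower), for 5 of 9 in U87MGR against U87MG (3 higher, 2 lower), against 48.4% (24.2% in each direction), and for 5 of 9 in U87MGR against U87MGL (1 higher, 4 lower), against 46.6% (23.3% in each direction). Over both directions these shares are near those of all genes. By direction the members lay higher more often than all genes in U87MGL against U87MG. They lay lower more often in U87MGR against U87MGL. BAMBI is among those lower and passed the filter only through U87MGL, so its place there supports nothing. The 9 genes were chosen for the pathway with earlier results of these data known. An excess over all genes, here or in the medians that follow, is therefore a description and supports nothing. The median absolute log2 fold change of the 9 members was 0.80, 0.47 and 0.32 in the same order, and that of all tested genes 0.25, 0.24 and 0.17. The first of the members' medians, 0.80, is the value of BAMBI, whose level in U87MGL carried it past the filter. For U87MGR against U87MGL the members' median was -0.32 with 7 of 9 below 0, BAMBI among them, beside 0.00 and 7206 of 14513 over all genes.

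The wider pathway was described with 76 genes in 6 lists by role, of which 60 were tested, the members included. These lists were also chosen with earlier results of these data known. In U87MGL against U87MG 5 were called higher and 2 lower, where 3.02% and 1.8% of all tested genes were. In U87MGR against U87MG 2 were called higher and 1 lower, beside 1.86% and 1.44%. In U87MGR against U87MGL 0 were called (at an unadjusted limma p under 0.05, 1 higher and 6 lower, beside 3.91% and 4.94%). Without the members the counts over 51 genes were 3 higher and 1 lower, 1 and 1, and 0. DLX3 and the member BAMBI were tested only because they were high in U87MGL. DLX3 is among the genes called higher in U87MGL against U87MG, with and without the members. Both genes are among the 6 lower at an unadjusted limma p. Their places in these counts support nothing. The median log2 fold changes of the 60 genes were 0.09, 0.06 and -0.09.

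Of 12 tested extracellular antagonists and modulators, GREM1 and CRIM1, a membrane protein with cysteine-rich repeats that binds BMPs, were higher in U87MGL than in U87MG, and KCP, a secreted protein of the chordin type that enhances BMP signalling, was lower. CRIM1 was at 9.06 and 9.72 in U87MG, 11.28 and 10.96 in U87MGL, and 10.86 and 9.98 in U87MGR, a log2 fold change of 1.72 for U87MGL (adjusted p = 0.0387) and of 1.03 for U87MGR (adjusted p = 0.148) against U87MG. KCP was at 6.86 and 6.78 in U87MG, 6.13 and 5.81 in U87MGL, and 7.10 and 7.13 in U87MGR, so that U87MGL lay below both other groups (-0.84 against U87MG, adjusted p = 0.0415). U87MGR exceeded U87MGL in KCP by 1.14 (adjusted p = 0.102), and NBL1, a secreted antagonist of the DAN family, differed by -1.29 (adjusted p = 0.373). These were the largest differences of the list in that contrast and neither passed. The calls of CRIM1 and KCP in U87MGL against U87MG ended with 2 or 3 batches as a block: CRIM1 was at 0.85 (adjusted p = 0.681) or 1.18 (adjusted p = 0.216) and KCP at -0.81 (adjusted p = 0.565) or -0.85 (adjusted p = 0.304). Both also ended without any 1 of the 6 arrays, at 1.39 to 2.06 and -1.004 to -0.682.

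None of 9 tested BMP ligands was called in any contrast. The largest values were 0.70 (BMP2) and -0.43 (BMP6) for U87MGL against U87MG, -0.62 (GDF5) and -0.59 (BMP6) for U87MGR against U87MG, and -0.26 (GDF5) and -0.23 (BMP2) for U87MGR against U87MGL. Of 10 tested receptors and co-receptors BMPR2 was the 1 called gene, in U87MGL against U87MG. In the other contrasts the list's largest values were -0.78 for the type I receptor ACVR1 and 0.66 for the co-receptor endoglin (ENG) in U87MGR against U87MG, and 0.42 for TGFBR3 and 0.38 for ACVRL1 in U87MGR against U87MGL.

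None of 6 SMADs was called. In U87MGR against U87MGL all 6 lay below 0 (median -0.36), as did 7206 of 14513 tested genes. Of the 6, 2 had an unadjusted limma p under 0.05, as did 4.94% of all tested genes in that direction. The common SMAD4 differed by -0.65 (adjusted p = 0.5) and the BMP-driven SMAD1 by -0.55 (adjusted p = 0.481). SMAD4 was at 9.26 and 9.15 in U87MGL and 8.88 and 8.22 in U87MGR. Within the spike-in batch the differences were -0.33 for SMAD4, -0.30 for SMAD1, -0.10 for SMAD7 and -0.03 for SMAD5. SMAD6 was at 0.085 and SMAD9 at 0.168 there, so not all 6 lay below 0. SMAD7, an inhibitory SMAD induced by the pathway, differed from U87MG by 1.00 in U87MGL and 0.95 in U87MGR, with SMAD5 at 0.65 in U87MGL and SMAD4 at -0.52 in U87MGR.

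Of 11 co-repressors and other inhibitors, SMURF1, a ubiquitin ligase that marks SMAD1 and SMAD5 for breakdown, was called higher in U87MGR against U87MG and TGIF1 lower in U87MGL against U87MG. SMURF1 was at 7.34 and 6.91 in U87MG, 7.84 and 8.16 in U87MGL, and 8.34 and 8.47 in U87MGR. All derivative arrays lay above both U87MG arrays. Its log2 fold change was 1.28 in U87MGR (adjusted p = 0.03) and 0.87 in U87MGL (adjusted p = 0.0601), and 1.13 within the batch that holds U87MGR and U87MG. The call ended with 2 or 3 batches as a block (1.34, adjusted p = 0.121, or 1.13, adjusted p = 0.0785), over the mean of all SMURF1 probe sets (0.57, adjusted p = 0.0744) and without any 1 array (1.06 to 1.34) other than U87MG replicate 1, without which it was 1.49 (adjusted p = 0.0234). In U87MGR against U87MGL the list's largest values were -1.14 (BAMBI) and 0.40 (SMURF1).

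Of 12 tested BMP target genes, the homeobox gene DLX3 and the transcription factor GATA3 were called higher in U87MGL against U87MG, and HEY1, a repressor shared with Notch signalling, lower in U87MGR against U87MG. DLX3 was at 4.83 and 4.31 in U87MG, 7.23 and 6.34 in U87MGL, and 4.80 and 4.86 in U87MGR, so that the U87MGL arrays stood above all others. The mean of its U87MG and U87MGR arrays, 4.70, was below the filter of 4.73, so DLX3 was tested only because it was high in U87MGL, and its differences are from groups near or below the filter level. It differed by 2.22 in U87MGL against U87MG (adjusted p = 0.0179) and by -1.96 in U87MGR against U87MGL (adjusted p = 0.126; -1.98 within the batch). Against U87MG, GATA3 differed by 0.88 in U87MGL (adjusted p = 0.0476) and HEY1 differed by -0.98 in U87MGR (adjusted p = 0.0471; -1.23 within the batch). With 2 or 3 batches as a block none of these calls held: DLX3 was at 2.27 (adjusted p = 0.423) or 2.02 (adjusted p = 0.25), GATA3 at 0.77 (adjusted p = 0.63) or 0.56 (adjusted p = 0.348) and HEY1 at -1.18 (adjusted p = 0.109) or -1.23 (adjusted p = 0.0658). HEY1 was also lost without a filter (adjusted p = 0.0512), with median centring (0.0529) and without any 1 array (-1.18 to -0.79). GATA3 was lost with quantile normalization (0.86, adjusted p = 0.0536), over the mean of all its probe sets (0.36, adjusted p = 0.175) and without any 1 array (0.67 to 0.93) other than U87MG replicate 1 (1.09, adjusted p = 0.0218). DLX3 was lost without U87MG replicate 2 (1.96, adjusted p = 0.0535) or either U87MGR array (2.22, adjusted p = 0.055). After DLX3, ID2 had the largest difference of the list in U87MGR against U87MGL.

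The partners and the neighbouring branch held no called gene. Of the helix-loop-helix partners of ID proteins, 4 were tested: TCF4 differed from U87MG by 0.71 in U87MGL and 0.61 in U87MGR, TCF3 by -0.26 and -0.54, and in U87MGR against U87MGL TCF3 was at -0.28 and OLIG2 at -0.13. Of the TGF-beta and activin branch 12 were tested, and the largest values were for CCN2, a matricellular target gene, at 2.14 in U87MGL and 1.97 in U87MGR against U87MG (adjusted p = 0.0826 and 0.109). PMEPA1 was at 0.92 in U87MGL and 0.78 in U87MGR against U87MG, and TGFBR2 at -0.58 and TGFB1 at -0.45 in U87MGR against U87MGL. CCN2 signals were 9.32 and 7.37 in U87MG, so the replicates of U87MG differed by nearly as much as the groups.

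**Figure D4:**
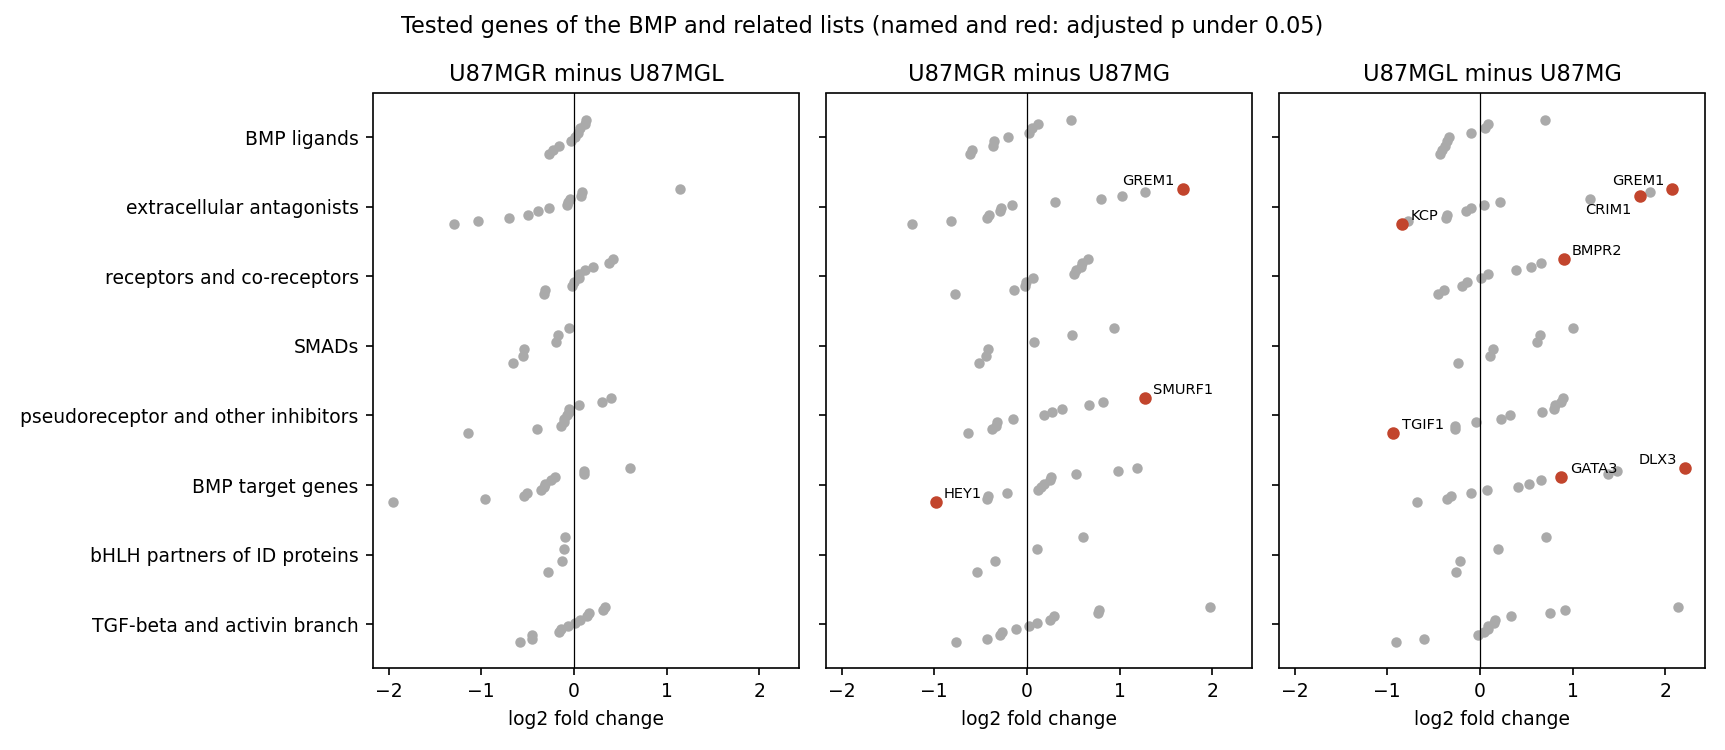
Log2 fold change (horizontal axis) of each tested gene of 8 lists in the 3 contrasts; each dot is a gene, and red dots with names had an adjusted p under 0.05. No gene of these lists is red in U87MGR minus U87MGL, and GREM1 is the 1 gene named in both contrasts with U87MG.

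GREM1 and BMP ligands are also products of fibroblasts and pericytes, so markers of other cells were read beside them. The 7 fibroblast and pericyte markers had a mean signal of 7.51 to 7.65 in U87MG, 7.12 to 7.49 in U87MGL and 6.66 to 7.29 in U87MGR. Of 6 tested 2, PDGFRB and decorin (DCN), were called lower in each derivative against U87MG. Of all tested genes 1.8% were called lower in U87MGL against U87MG and 1.44% in U87MGR against U87MG. The mean level of the list was lower in all 4 derivative arrays, though U87MGL replicate 1 was at 7.487 beside 7.508 in U87MG replicate 2. In U87MGL against U87MG 3 of the 6 tested markers lay above 0. The part of such cells in the GREM1 values was not tested. The mean signals of the microglia and macrophage, endothelial and oligodendrocyte lists lay between 4.85 and 5.34 on every array. Those of the neuron list lay between 6.455 and 6.825. No marker of microglia, endothelium, neurons or oligodendrocytes was called in any contrast. In arrays of whole cultures, fewer cells of a type and less RNA per cell cannot be told apart.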

How the data were processed

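Total RNA of cultured cells was measured on 1-colour arrays with biotin-labelled cRNA, per the labels' protocols. The authors deposited a log2 signal for each of 54675 probe sets. Array medians are alike, and the normalization and software are not given in the sources used here. No raw signals or background values were used, and depth has no meaning for arrays: the number of arrays limits the precision (a contrast's standard error had a median of 0.19). Of the probe sets, 41097 carried 1 gene symbol, 1801 several and 11777 none; 41043 of the first were matched to GRCh38.p14 by gene number to update symbols.

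The brightest 1-symbol probe set stood for a gene, and genes whose mean over the 6 arrays was at least 4.73, the 40th percentile over probe sets, were tested. A limma model (version 3.58.1, R 4.3.3) with a mean per group gave the 3 contrasts, with 3 residual and 4.05 prior degrees of freedom. It was tested on simulated data. Equally numbered arrays did not deviate together after group means were removed (correlations across genes 0.01, 0.11 and -0.09), so they were not paired in the main model. Spike-in batches were clustered from 45 control probe sets by complete linkage.

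Named genes were all members, up to 3 called genes a direction in each pathway list and contrast (with none, the 2 largest differences), and the 3 genes nearest to GREM1. The members and lists were chosen with earlier results of these data known. Alternatives were other filters, scalings, probe sets, blocks and sample sets.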

Additional observations from a re-analysis of the deposited data

How the results depend on the processing

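With the same probe sets, the 4 member calls kept their direction in every fit run; the exception among other probe sets is BMPR2 (1556075_at). Their values with batches as a block or an array left out stand beside them. They also held without a filter, with quantile normalization, median centring, the replicate block and an intensity trend; the mean of probe sets lost TGIF1. In fits of only the 2 groups compared, GREM1 was called in U87MGL against U87MG (0 lower and 1 higher member), and 0 members were called in U87MGR against U87MG.

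The replicate block changed no call of a member. It ended the calls of CRIM1 (adjusted p = 0.052), KCP (0.0546), GATA3 (0.0598) and HEY1 (0.067), and took the lower BMP pathway genes to 0 in U87MGR against U87MG and to 1 in U87MGL against U87MG, the same 0 as no filter and median centring gave in the first. The mean of probe sets gave 1 higher pathway gene in U87MGR against U87MG, and 1 lower pathway gene and 0 lower members in U87MGL against U87MG. In fits of 2 groups the pathway counts were 0 higher and 0 lower (U87MGR against U87MG) and 1 and 0 (U87MGL against U87MG). With 2 or 3 spike-in batches as a block, no member was called and no pathway gene was called higher; the lower pathway counts were 0, except 1 gene other than HEY1 in U87MGR against U87MG with 3 batches.

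Over all genes, higher and lower calls in U87MGR against U87MGL went from 6 and 17 to 1 and 3 with 2 batches and 0 and 0 with 3 (unadjusted 563 and 606); lower calls were 32 without a filter and 26 in the 2-group fit. In U87MGR against U87MG they went from 270 and 209 to 5 and 6, 96 and 135, and, in the 2-group fit, 111 and 122. In U87MGL against U87MG they went from 438 and 261 to 0 and 0 with either block (unadjusted 649 and 587, or 1111 and 1115) and to 124 and 91. The 3-batch block leaves out U87MG replicate 2, and the 2-group fits have fewer degrees of freedom.

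With 1 array left out, higher and lower calls ranged over 0 to 8 and 3 to 26 (U87MGR against U87MGL), 1 to 486 and 0 to 391 (U87MGR against U87MG), and 17 to 883 and 20 to 667 (U87MGL against U87MG). Member calls ranged over 0 to 1 higher and 0 lower, and 0 to 3 higher and 0 to 1 lower, in the contrasts with U87MG; pathway calls over 0 to 4 and 0 to 1, and 1 to 10 and 0 to 2. No member was called in U87MGR against U87MGL under any alternative fit.

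Some differences changed sign, and the cause was not tested. In U87MGR against U87MGL, ID1 was at 0.163 with either block and ranged from -0.566 (without U87MGR replicate 1) to 0.163 (without U87MGR replicate 2) with an array left out, and BMP2 from -0.71 (without U87MGL replicate 1) to 0.252 (without U87MGL replicate 2). In U87MGR against U87MG, ID3 was at -0.141 with 2 batches and -0.487 with 3, and ranged from -0.223 (without U87MG replicate 2) to 0.47 (without U87MG replicate 1). BMP2 ranged there from -0.008 to 0.95 without the same arrays, and BMP4 from -0.072 (without U87MGR replicate 2) to 0.122 (without U87MGR replicate 1). In U87MGL against U87MG the blocks with 2 and 3 batches gave BMP4 0.095 and 0.006, ID2 -0.199 and -0.549, and ID3 -0.217 with 3. The probe set 1556075_at gave BMPR2 -0.195 and -0.141 against U87MG in U87MGR and U87MGL, and 1566901_at gave TGIF1 0.38 in U87MGR. For ID2, 213931_at, which carries 2 gene symbols, gave 0.648 in U87MGR against U87MG.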
